A study of Mus musculus with 9 samples.

Results

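Glutamate and GABA receptor subunits were followed in mouse brain RNA 72 hours after intracerebral haemorrhage (ICH), with and without the compound P7C3-A20. The members were the genes whose symbols name a subunit of an AMPA (Gria), kainate (Grik), NMDA (Grin), delta (Grid) or metabotropic (Grm) glutamate receptor, or of a GABA-A (Gabra, Gabrb, Gabrg, Gabrd, Gabre, Gabrp, Gabrq, Gabrr) or GABA-B (Gabbr) receptor. The choice used names alone, and found 47 of the 35112 genes in the expression table. All 9 brains came from wild-type C57BL/6 mice, 3 to a group: ICH+P7C3-A20 (haemorrhage and the compound), ICH (haemorrhage without it) and sham (control treatment). Mice were assigned at random and sequenced 3 days after treatment, with 1 polyadenylated RNA library per animal. The labels give the tissue as brain, and name no region, side, dose, age or method of making the haemorrhage. Libraries are named here by group and replicate, such as ICH 2.

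Glutamate is the main excitatory transmitter of the brain. AMPA and kainate receptors are cation channels that carry fast excitation, NMDA receptors are channels that also admit calcium, and metabotropic receptors act through G proteins. Delta receptors resemble ionotropic glutamate receptors and bind cerebellin proteins at synapses. GABA is the main inhibitory transmitter. GABA-A receptors are chloride channels built from alpha, beta and, mostly, gamma or delta subunits, and GABA-B receptors are G-protein coupled pairs of Gabbr1 and Gabbr2 products. Calcium entry through glutamate receptors is a classical route of neuronal injury after stroke. Most of these genes are transcribed chiefly in neurons, although some, such as Grm3 and Gabrg1, are also found in glia.

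Most subunit transcripts were lower in ICH brains than in sham brains, and 5 of them were higher in ICH+P7C3-A20 brains than in ICH brains. Genes were called from the deposited estimated counts with edgeR at a Benjamini-Hochberg adjusted p under 0.05 over 21900 tested genes. In ICH against sham, 31 of the 43 tested members (47 in all) fell and 0 rose, where 10.4% of all tested genes fell and 15.6% rose (26.0% called either way). In ICH+P7C3-A20 against ICH, 5 members rose, among them Gria2, Grik2, Gabra3 and Gabra5, and 0 fell, where 2.69% of tested genes rose and 6.05% fell (8.74% called). In ICH+P7C3-A20 against sham, 6 members fell, among them Grm4, Grm5, Grid1, Gabra4 and Gabrb2, and 0 rose, where 0.744% of tested genes fell and 4.58% rose (5.32% called). At an unadjusted p under 0.05 the 3 comparisons had 36, 24 and 15 members in that order, each moving in the direction of its calls, and in the other direction DESeq2 called 0 in each. Of all 21900 tested genes, 8019, 5316 and 3981 had such a p in the same order, counted in either direction. In ICH against sham, all ICH brains were below all sham brains for 32 members and above them for 0, where 14.3% of tested genes were below and 23.0% above in this way (37.3% in all). The 5 and the 6 share 0 genes, and all 11 are among the 31. The 3 comparisons share libraries, so their calls are not independent. In whole tissue, fewer cells of a type and less RNA per cell cannot be told apart.

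Promoter sequence is shown for 4 of the members that rose together in ICH+P7C3-A20 against ICH. RefSeq (GRCm38.p6) entries matched 32 of the 47 members by symbol, among them these 4. Each sequence is the 250 bases before the RefSeq start, on the gene's strand, with CG dinucleotides in capitals. The 4 regions are chr3:80802836-80803085 (Gria2), chr10:49788755-49789004 (Grik2), chrX:72656808-72657057 (Gabra3) and chr7:57510060-57510309 (Gabra5), each on the minus strand.
Gria2: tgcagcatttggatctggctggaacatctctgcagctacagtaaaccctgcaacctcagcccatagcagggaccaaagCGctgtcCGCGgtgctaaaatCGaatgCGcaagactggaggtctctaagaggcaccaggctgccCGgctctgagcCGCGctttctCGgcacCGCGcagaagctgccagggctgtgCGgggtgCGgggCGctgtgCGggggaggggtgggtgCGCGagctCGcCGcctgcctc
Grik2: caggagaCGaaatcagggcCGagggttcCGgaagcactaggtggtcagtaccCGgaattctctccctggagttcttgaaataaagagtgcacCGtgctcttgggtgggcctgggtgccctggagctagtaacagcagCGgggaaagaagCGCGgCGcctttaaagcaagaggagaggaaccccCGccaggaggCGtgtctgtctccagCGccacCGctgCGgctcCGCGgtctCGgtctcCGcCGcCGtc
Gabra3: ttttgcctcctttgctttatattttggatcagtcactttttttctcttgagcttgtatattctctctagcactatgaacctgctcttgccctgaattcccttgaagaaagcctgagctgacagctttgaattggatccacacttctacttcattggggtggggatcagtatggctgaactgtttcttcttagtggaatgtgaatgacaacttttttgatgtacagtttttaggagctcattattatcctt
Gabra5: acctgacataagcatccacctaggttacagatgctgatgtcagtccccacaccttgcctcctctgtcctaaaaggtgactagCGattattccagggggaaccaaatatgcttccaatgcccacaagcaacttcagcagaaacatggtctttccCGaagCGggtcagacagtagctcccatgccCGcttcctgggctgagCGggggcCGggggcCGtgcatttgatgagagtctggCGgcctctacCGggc
The CG content of the 4 promoters was unlike. Grik2 has 20 CG dinucleotides, Gria2 19, Gabra5 9 and Gabra3 0, against a median of 6 over 32536 mouse promoters. At least as many as in Grik2 stand in 18.1% of those promoters, as in Gria2 in 19.9% and as in Gabra5 in 40.6%. On both strands, the 4 hold none of the cyclic AMP response element TGACGTCA, the EGR motif GCGNGGGCG, the GC box GGGCGG or TTCAGCACC, the left part of the RE1 site of the neuronal repressor REST. Among the 32 matched members, 16 hold the GC box (50.0%, against 33.0% of all promoters), 2 the EGR motif (Gabrb2 and Gria4; 4.74% of all), 1 the RE1 part (Grm2; 0.301% of all), and 0 the cyclic AMP response element (1.56% of all). A match is a run of letters, and no match says nothing of the factor.

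The level of a subunit is given as FPKM, fragments scaled by transcript length and library size, so that genes can be ranked. Of the 47 members, 38 averaged at least 1 FPKM over the 9 libraries and 16 at least 10. Gabbr1 was the highest with a mean of 80.9 FPKM, followed by Gria1 with 46.6 and Grin1 with 34.8 FPKM, and Grik5 had 31.0 FPKM. No member was at 0 in every library. Grm6, Gabrp, Gabrr1 and Gabrr3 did not pass the low-count filter and were not tested. Summed over all members, FPKM were 495 to 545 in ICH+P7C3-A20 libraries, 399 to 421 in ICH libraries and 584 to 679.6 in sham libraries. These 3 ranges did not overlap, with ICH lowest and sham highest. AMPA subunits made up 18.2% to 18.8% of that sum in ICH+P7C3-A20 brains, 17.6% to 18.5% in ICH brains and 16.6% to 19.3% in sham brains, so their share overlapped between groups while their amount was lower in ICH.

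**Figure D1:**
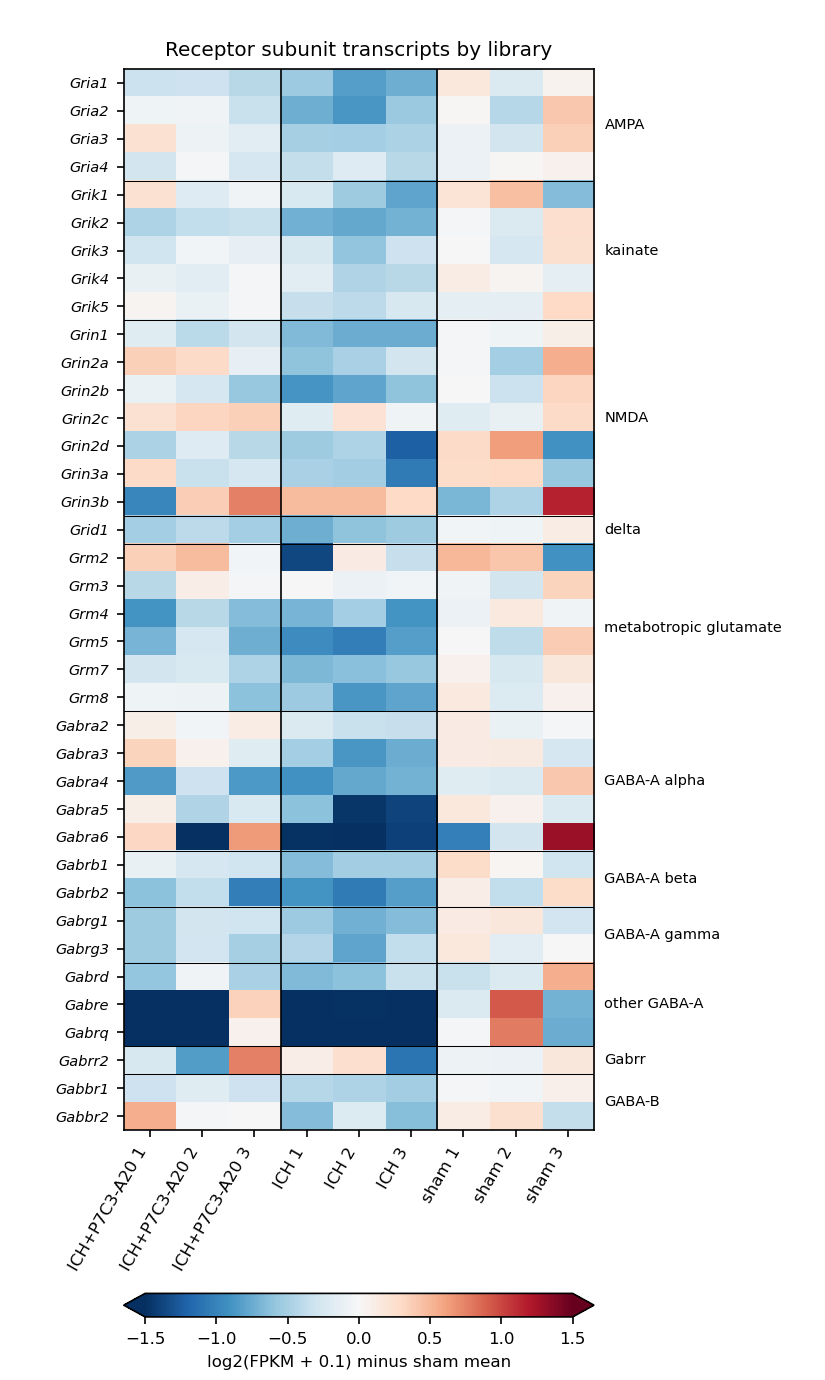
Log2(FPKM + 0.1) of 38 of the 43 tested subunits (rows, with receptor classes named at the right) in each library (columns, from ICH+P7C3-A20 through ICH to sham) minus its sham mean, with the colour scale limited to 1.5 in either direction. The ICH columns are below the sham mean for most subunits, and members with few counts, such as Grin3b, Gabra6 and Gabrr2, vary from library to library.

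Neuronal cells were present in all libraries: all 12 pan-neuronal markers were detected in each. Of these markers, 9 fell and 0 rose in ICH against sham (median log2 change -0.64), 2 rose and 0 fell in ICH+P7C3-A20 against ICH (median 0.60), and 0 were called in ICH+P7C3-A20 against sham (median -0.09). Their summed FPKM were 806 to 1155 in ICH+P7C3-A20 libraries, 674 to 722 in ICH libraries and 984 to 1076 in sham libraries. Over the 43 tested receptor subunits the medians in these 3 comparisons were -0.74, 0.41 and -0.27, and over all tested genes 0.00, -0.01 and 0.03. The part of these neuronal markers in the receptor results was not tested. Some libraries stood apart from their group. The mean log2 level of pan-neuronal markers against the sham mean was 0.24 in ICH+P7C3-A20 1. It was -0.40 and -0.30 in the other ICH+P7C3-A20 libraries, and -0.77 to -0.55 in ICH libraries. For cortical neuron markers this level was 1.40 in ICH+P7C3-A20 1, against 0.67 and 0.87 in the other ICH+P7C3-A20 libraries. Oligodendrocyte markers were at -0.99 in ICH+P7C3-A20 1, against 0.06 and 0.03 in the others of its group. In sham 3, thalamic and hypothalamic markers were at -1.83, against 0.46 in sham 1 and 1.37 in sham 2. With sham 3 and ICH+P7C3-A20 1 both left out, 35 members fell and Grin3b rose (log2 change 1.79) in ICH against sham, 5 rose in ICH+P7C3-A20 against ICH, and 10 fell in ICH+P7C3-A20 against sham. The libraries held 51537047 to 63324728 estimated counts, at which 3 counts equal 0.0474 to 0.0582 CPM (counts scaled for depth), a limit that covers counting error only.

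All 4 AMPA receptor subunits fell in ICH against sham, by a median of 0.66 on the log2 scale. Gria1, whose GluA1 subunit is moved into synapses during plasticity, had 46.5, 46.7 and 43.5 FPKM in ICH+P7C3-A20 brains, 39.9, 32.7 and 34.9 FPKM in ICH brains and 64.8, 50.1 and 60.3 FPKM in sham brains. Every ICH brain was below every sham brain, and the ICH+P7C3-A20 brains lay between them without overlap (log2 change -0.76 ± 0.14, edgeR adjusted p = 0.00259). Gria2 encodes GluA2, whose edited form keeps AMPA channels nearly closed to calcium. It had 28.0, 28.1 and 23.1 FPKM in ICH+P7C3-A20 brains, 17.5, 15.9 and 19.8 FPKM in ICH brains and 29.6, 21.7 and 38.9 FPKM in sham brains. ICH brains were again lowest, and here the ICH+P7C3-A20 brains overlapped the sham brains (log2 change -0.80 ± 0.16, edgeR adjusted p = 0.00464 in ICH against sham). Gria2 is the AMPA subunit that rose in ICH+P7C3-A20 against ICH, 1.56-fold (log2 change 0.64 ± 0.16, edgeR adjusted p = 0.0375). Gria3 had 16.4, 13.2 and 12.4 FPKM in ICH+P7C3-A20 brains, 9.85, 9.79 and 10.05 FPKM in ICH brains and 13.2, 11.5 and 18.0 FPKM in sham brains. It was lower in ICH brains than in either other group without overlap (log2 change -0.56 ± 0.16, edgeR adjusted p = 0.0284 in ICH against sham), and its log2 change of 0.57 ± 0.16 in ICH+P7C3-A20 against ICH missed the threshold (edgeR adjusted p = 0.0557). Gria4, a subunit with fast kinetics, had 11.1, 13.2 and 11.3 FPKM in ICH+P7C3-A20 brains, 10.5, 11.8 and 10.1 FPKM in ICH brains and 12.7, 13.7 and 14.1 FPKM in sham brains. The ICH and sham ranges were apart by a small margin (log2 change -0.36 ± 0.11, edgeR adjusted p = 0.0355), and the ICH+P7C3-A20 range overlapped both. The call of Gria3 ended without sham 1, sham 3, ICH 1, ICH 2 or ICH 3 (log2 changes -0.66 to -0.43 with each library left out in turn, edgeR adjusted p up to 0.0991), and that of Gria4 without sham 1, sham 2, ICH 1, ICH 3 or ICH+P7C3-A20 3 (-0.48 to -0.26, up to 0.143).

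Among kainate receptor subunits, 3 of 5 fell in ICH against sham. Grik2, which forms the channel of most forebrain kainate receptors, had 7.33, 7.80 and 8.01 FPKM in ICH+P7C3-A20 brains, 6.10, 5.92 and 6.17 FPKM in ICH brains and 9.90, 8.68 and 12.1 FPKM in sham brains. The 3 groups did not overlap, and Grik2 both fell in ICH against sham (log2 change -0.79 ± 0.11, edgeR adjusted p = 0.000545) and rose in ICH+P7C3-A20 against ICH, 1.33-fold (log2 change 0.41 ± 0.11, edgeR adjusted p = 0.0491). Grik5, a subunit that needs a partner such as Grik2 to form a channel, was the highest of the class. It had 34.3, 31.1 and 32.8 FPKM in ICH+P7C3-A20 brains, 26.3, 25.5 and 28.2 FPKM in ICH brains and 30.2, 30.1 and 41.1 FPKM in sham brains. The ICH brains were lowest and the other groups overlapped (log2 change -0.38 ± 0.13, edgeR adjusted p = 0.0492 in ICH against sham). Grik3, another channel-forming subunit, had 8.33, 9.97 and 9.45 FPKM in ICH+P7C3-A20 brains, 8.69, 6.82 and 8.28 FPKM in ICH brains and 10.3, 8.65 and 12.2 FPKM in sham brains. Its ICH range reached into the sham range although the test passed (log2 change -0.44 ± 0.11, edgeR adjusted p = 0.0169). Grik1 and Grik4 averaged 1.34 and 2.07 FPKM and were not called, with log2 changes of -0.68 ± 0.34 and -0.42 ± 0.17 in ICH against sham. The calls of Grik5 and Grik3 were the less stable: that of Grik5 ended without sham 1, sham 2, sham 3, ICH 1, ICH 2, ICH 3 or ICH+P7C3-A20 3 (log2 changes -0.43 to -0.29, edgeR adjusted p up to 0.139) and that of Grik3 without sham 1, ICH 2 or ICH 3 (-0.52 to -0.38, up to 0.0809).

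NMDA receptor subunits fell in 2 of 7 cases in ICH against sham, Grin1 and Grin2b. Grin1 encodes GluN1, the subunit every NMDA receptor needs. It had 37.8, 32.4 and 35.6 FPKM in ICH+P7C3-A20 brains, 27.1, 25.7 and 25.6 FPKM in ICH brains and 42.6, 41.1 and 45.7 FPKM in sham brains. The ranges of the 3 groups did not overlap, and Grin1 in ICH brains was 1.70-fold lower than in sham brains (log2 change -0.77 ± 0.14, edgeR adjusted p = 0.00251). Its log2 change of 0.50 ± 0.14 in ICH+P7C3-A20 against ICH stood at an edgeR adjusted p of 0.0506 and was not called. Grin2b, prominent in the developing forebrain and kept in adult forebrain, had 9.72, 8.78 and 6.99 FPKM in ICH+P7C3-A20 brains, 5.60, 5.99 and 6.86 FPKM in ICH brains and 10.5, 8.32 and 13.0 FPKM in sham brains. ICH brains were below sham brains without overlap, and ICH+P7C3-A20 brains reached into the sham range (log2 change -0.83 ± 0.16, edgeR adjusted p = 0.00347 in ICH against sham). Grin2a, the subunit that becomes common in adult synapses, averaged 4.81 ± 0.84 FPKM in ICH+P7C3-A20, 3.06 ± 0.36 FPKM in ICH and 4.41 ± 1.65 FPKM in sham brains (SD, n = 3 each). Its log2 changes were -0.56 ± 0.20 in ICH against sham (edgeR adjusted p = 0.0697) and 0.71 ± 0.20 in ICH+P7C3-A20 against ICH (edgeR adjusted p = 0.0562), neither called. Grin2c averaged 9.78 FPKM over the libraries and had a log2 change of -0.04 ± 0.15 in ICH against sham. Grin2d and Grin3a had log2 changes of -0.92 ± 0.39 and -0.81 ± 0.33 with overlapping groups, and Grin3b, with 4 to 98 counts per library, had 0.28 ± 0.88. Exons of Grin1, Grin2b, Grin2c, Grin2d and Grin3b overlap a gene on the opposite strand, and the strand setting of the count is not given in the sources used here.

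Grid1, a delta receptor subunit, fell in ICH against sham. It had 6.47, 7.00 and 6.48 FPKM in ICH+P7C3-A20 brains, 5.54, 6.06 and 6.35 FPKM in ICH brains and 8.94, 8.82 and 9.99 FPKM in sham brains. The 3 groups did not overlap, with sham highest and ICH lowest, at a log2 change of -0.68 ± 0.09 (edgeR adjusted p = 0.000502). It also fell in ICH+P7C3-A20 against sham (log2 change -0.46 ± 0.09, edgeR adjusted p = 0.0178), while 0.21 ± 0.09 in ICH+P7C3-A20 against ICH was not called (edgeR adjusted p = 0.203). The call of Grid1 in ICH+P7C3-A20 against sham ended without sham 1, ICH+P7C3-A20 2 or ICH+P7C3-A20 3 (log2 changes -0.50 to -0.41, edgeR adjusted p up to 0.0671).

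Of the metabotropic glutamate receptors, Grm4, Grm5, Grm7 and Grm8 fell in ICH against sham, and Grm4 and Grm5 also fell in ICH+P7C3-A20 against sham. Grm5, which couples to Gq, had 14.8, 20.1 and 14.4 FPKM in ICH+P7C3-A20 brains, 12.4, 11.7 and 13.5 FPKM in ICH brains and 23.9, 18.3 and 31.3 FPKM in sham brains. ICH brains were lowest without overlap and 2.01-fold below sham (log2 change -1.01 ± 0.14, edgeR adjusted p = 0.000458). The ICH+P7C3-A20 brains overlapped the sham brains, with a log2 change of -0.57 ± 0.14 (edgeR adjusted p = 0.0406) in ICH+P7C3-A20 against sham. Calls differed among the receptors coupled to Gi, whose changes were not tested against each other. Grm3, found in astrocytes as well as neurons, averaged 13.8 ± 2.47 FPKM in ICH+P7C3-A20, 14.5 ± 0.45 FPKM in ICH and 15.1 ± 3.36 FPKM in sham brains (SD, n = 3 each), and its log2 change of -0.10 ± 0.13 in ICH against sham was not called (edgeR adjusted p = 0.647). Grm2 averaged 1.88 FPKM and was not called (-0.64 ± 0.47). Grm4, a presynaptic receptor, had 6.26, 8.72 and 7.43 FPKM in ICH+P7C3-A20 brains, 7.16, 8.19 and 6.21 FPKM in ICH brains and 10.97, 13.0 and 11.2 FPKM in sham brains. Both haemorrhage groups lay below the sham brains and overlapped each other (log2 change -0.75 ± 0.16, edgeR adjusted p = 0.00528 in ICH against sham, log2 change -0.66 ± 0.16, edgeR adjusted p = 0.0359 in ICH+P7C3-A20 against sham). Grm7, also presynaptic, had 6.14, 6.33 and 5.39 FPKM in ICH+P7C3-A20 brains, 4.62, 4.77 and 4.98 FPKM in ICH brains and 7.78, 6.31 and 8.41 FPKM in sham brains. ICH brains were below all others (log2 change -0.69 ± 0.11, edgeR adjusted p = 0.00144 in ICH against sham). Grm8, the lowest of the called members of this class, had 0.673, 0.670 and 0.430 FPKM in ICH+P7C3-A20 brains, 0.453, 0.340 and 0.368 FPKM in ICH brains and 0.796, 0.600 and 0.744 FPKM in sham brains. ICH and sham did not overlap (log2 change -0.93 ± 0.22, edgeR adjusted p = 0.011). Grm6, the receptor of retinal ON bipolar cells, had 9 counts in ICH 2 and 0 in the other 8 libraries, and was not tested. The call of Grm4 in ICH+P7C3-A20 against sham ended without sham 1, sham 2, ICH 1 or any ICH+P7C3-A20 library (log2 changes -0.75 to -0.55, edgeR adjusted p up to 0.112), and that of Grm5 when any library other than sham 2 was left out (-0.72 to -0.44, up to 0.162).

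**Figure D2:**
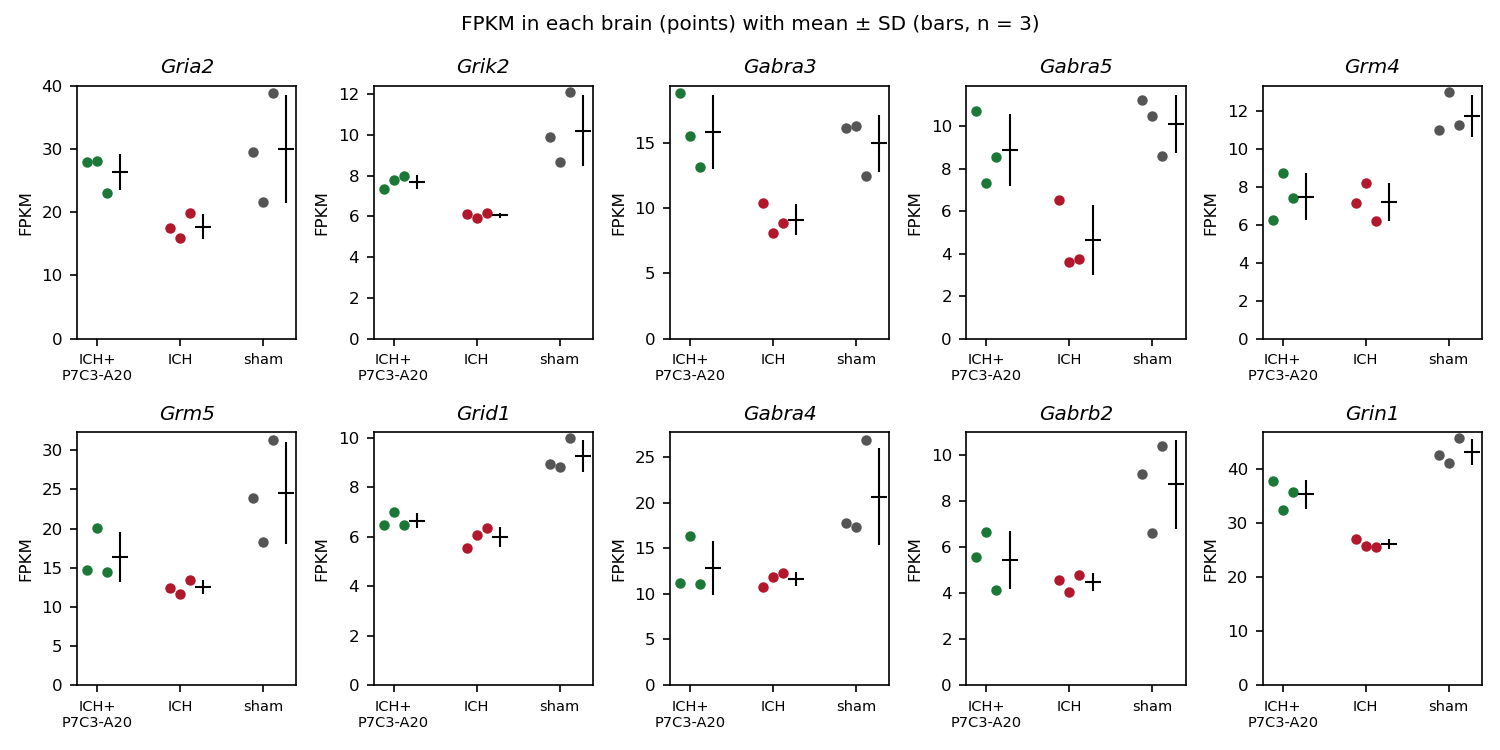
FPKM of 10 subunits in each brain (points), with the group mean and SD at the right of each set (bars, n = 3), for 4 of the 5 that rose in ICH+P7C3-A20 against ICH, 5 of the 6 that fell in ICH+P7C3-A20 against sham, and Grin1. The ICH points lie below the sham points in all 10 panels, and the ICH+P7C3-A20 points of Grm4 (6.26 to 8.72 FPKM) overlap those of ICH while those of Gabra3 (13.1 to 18.8 FPKM) reach the sham range.

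Of the GABA-A alpha subunits, which shape GABA affinity and drug binding, Gabra3, Gabra4, Gabra5 and Gabra6 fell in ICH against sham. Gabra3, with 18.8, 15.6 and 13.1 FPKM in ICH+P7C3-A20 brains, 10.4, 8.09 and 8.84 FPKM in ICH brains and 16.2, 16.3 and 12.5 FPKM in sham brains, had its lowest values in ICH, and the ICH+P7C3-A20 range overlapped the sham range. It fell in ICH against sham (log2 change -0.78 ± 0.20, edgeR adjusted p = 0.0139) and rose in ICH+P7C3-A20 against ICH, 1.82-fold (log2 change 0.86 ± 0.20, edgeR adjusted p = 0.0243). Gabra5, an extrasynaptic subunit best known from hippocampus, had 10.7, 7.35 and 8.56 FPKM in ICH+P7C3-A20 brains, 6.52, 3.60 and 3.77 FPKM in ICH brains and 11.2, 10.5 and 8.61 FPKM in sham brains. The 2.27-fold drop in ICH against sham (log2 change -1.18 ± 0.28, edgeR adjusted p = 0.00952) and the 2.02-fold rise in ICH+P7C3-A20 against ICH (log2 change 1.01 ± 0.27, edgeR adjusted p = 0.0464) were both called, and the ICH+P7C3-A20 range overlapped the sham range. Gabra4, a partner of the delta subunit in forebrain and thalamus, had 11.2, 16.3 and 11.1 FPKM in ICH+P7C3-A20 brains, 10.8, 11.9 and 12.3 FPKM in ICH brains and 17.8, 17.4 and 26.9 FPKM in sham brains. ICH and ICH+P7C3-A20 brains overlapped, and both lay below sham (log2 change -0.86 ± 0.13, edgeR adjusted p = 0.00104 in ICH against sham, log2 change -0.68 ± 0.13, edgeR adjusted p = 0.0155 in ICH+P7C3-A20 against sham). Gabra6 is the alpha subunit of cerebellar granule cells and was at the edge of detection. It had 0.366, 0.0209 and 0.485 FPKM in ICH+P7C3-A20 brains, 0.0343, 0 and 0.0420 FPKM in ICH brains and 0.0841, 0.211 and 0.821 FPKM in sham brains, or 4 to 81 counts in ICH+P7C3-A20, 0 to 7 counts in ICH and 15 to 149 counts in sham. Its log2 change of -3.80 ± 1.25 in ICH against sham had an edgeR adjusted p of 0.0467. Of 9 cerebellar neuron markers in that comparison, 6 had negative and 3 positive log2 changes (median -0.87): Cbln3 (-2.03 ± 0.67) and Calb1 (-0.87 ± 0.14) fell, Car8 (0.69 ± 0.19) rose, and Barhl1 and Barhl2 were at 0 in at least 1 library. Their summed FPKM were 40.2 to 85.5 in ICH+P7C3-A20 libraries, 53.7 to 68.6 in ICH libraries and 62.5 to 85.1 in sham libraries. The part of cerebellar tissue in the change of Gabra6 was not tested. Gabra2 was not called (log2 change -0.36 ± 0.14, edgeR adjusted p = 0.0905) although all ICH brains were below all sham brains.

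Several calls on alpha subunits ended when a single library was left out, while the sign of the log2 change stayed. In ICH against sham, that of Gabra3 ended without sham 1, ICH 2 or ICH 3 (log2 changes -0.95 to -0.69 with each library left out in turn, edgeR adjusted p up to 0.0583) and that of Gabra6 when any library other than sham 1 or ICH+P7C3-A20 2 was left out (-4.26 to -2.60, up to 0.166). That of Gabra4 in ICH+P7C3-A20 against sham ended without ICH+P7C3-A20 3 (-0.78 to -0.53, up to 0.0824). Gabra4 and Gabra5 kept their call in ICH against sham in all 20 alternatives tried.

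The beta subunits Gabrb1 and Gabrb2 and the gamma subunits Gabrg1 and Gabrg3 of the GABA-A receptor fell in ICH against sham. Gabrb2, common in adult brain, had 5.57, 6.64 and 4.12 FPKM in ICH+P7C3-A20 brains, 4.58, 4.05 and 4.80 FPKM in ICH brains and 9.16, 6.62 and 10.4 FPKM in sham brains. It was 2.01-fold lower in ICH than in sham brains (log2 change -1.01 ± 0.15, edgeR adjusted p = 0.000914) and also fell in ICH+P7C3-A20 against sham (log2 change -0.68 ± 0.15, edgeR adjusted p = 0.0298), where ICH+P7C3-A20 2 lay just above sham 2. Gabrb1 had 8.28, 7.47 and 7.25 FPKM in ICH+P7C3-A20 brains, 5.63, 6.17 and 6.17 FPKM in ICH brains and 10.8, 9.08 and 7.24 FPKM in sham brains. All ICH brains were below all others (log2 change -0.66 ± 0.19, edgeR adjusted p = 0.0238 in ICH against sham). Gabrg1, also found in astrocytes, had 2.55, 3.06 and 3.02 FPKM in ICH+P7C3-A20 brains, 2.53, 2.21 and 2.33 FPKM in ICH brains and 4.06, 4.20 and 3.03 FPKM in sham brains. The ICH range was lowest (log2 change -0.74 ± 0.17, edgeR adjusted p = 0.00917 in ICH against sham). Gabrg3 had 2.52, 3.00 and 2.58 FPKM in ICH+P7C3-A20 brains, 2.68, 2.09 and 2.82 FPKM in ICH brains and 4.13, 3.28 and 3.68 FPKM in sham brains. Sham brains were highest, and the other groups overlapped (log2 change -0.61 ± 0.12, edgeR adjusted p = 0.00442 in ICH against sham). The call of Gabrb1 in ICH against sham ended without sham 1, sham 2, ICH 1 or ICH 3 (log2 changes -0.85 to -0.47, edgeR adjusted p up to 0.0993). That of Gabrb2 in ICH+P7C3-A20 against sham ended without sham 1, sham 3, ICH 1, ICH 2, ICH 3, ICH+P7C3-A20 2 or ICH+P7C3-A20 3 (-0.82 to -0.54, up to 0.115).

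The remaining GABA-A subunits included some with large changes at low level. Gabrd, which marks extrasynaptic receptors sensitive to neurosteroids, had 15.5, 22.4 and 16.5 FPKM in ICH+P7C3-A20 brains, 14.6, 15.0 and 18.4 FPKM in ICH brains and 18.4, 19.9 and 33.7 FPKM in sham brains. ICH was just below sham without overlap, and ICH+P7C3-A20 overlapped both (log2 change -0.62 ± 0.16, edgeR adjusted p = 0.0175 in ICH against sham). Gabre had 0.165, 0.237 and 1.21 FPKM in ICH+P7C3-A20 brains, 0.186, 0.269 and 0.191 FPKM in ICH brains and 0.789, 1.85 and 0.533 FPKM in sham brains. ICH brains were uniformly low, and 1 ICH+P7C3-A20 brain and all sham brains were higher (log2 change -2.36 ± 0.78, edgeR adjusted p = 0.0485 in ICH against sham). Gabrq, the theta subunit known from hypothalamus and monoaminergic nuclei, had 0.453, 0.794 and 2.56 FPKM in ICH+P7C3-A20 brains, 0.661, 0.565 and 0.369 FPKM in ICH brains and 2.40, 4.26 and 1.42 FPKM in sham brains. As for Gabre, ICH+P7C3-A20 3 stood above its group and sham 2 was the highest library (log2 change -2.40 ± 0.67, edgeR adjusted p = 0.027 in ICH against sham). Thalamic and hypothalamic markers had summed FPKM of 27.5 to 61.9 in ICH+P7C3-A20 libraries, 31.9 to 131 in ICH libraries and 25.7 to 193 in sham libraries, with 3 of 12 lower and 0 higher in ICH against sham, among them Oxt at -4.47 ± 1.06, Baiap3 at -1.70 ± 0.31 and Gpr101 at -1.75 ± 0.37. The part of the tissue taken in the changes of Gabre and Gabrq was not tested. The call of Gabrd ended without ICH 1 or ICH 2 (log2 changes -0.74 to -0.38, edgeR adjusted p up to 0.0723), and those of Gabre (-2.71 to -1.64, up to 0.161) and Gabrq (-2.74 to -1.87, up to 0.110) without sham 1, sham 2 or any ICH library.

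The Gabrr subunits, best known from retina, and the pi subunit Gabrp were at the edge of detection. Gabrr2 had 0.155, 0.0681 and 0.409 FPKM in ICH+P7C3-A20 brains, 0.223, 0.258 and 0.0412 FPKM in ICH brains and 0.186, 0.183 and 0.238 FPKM in sham brains, and it was not called (log2 change -0.22 ± 0.79 in ICH against sham). Gabrr1 had 4 counts in ICH+P7C3-A20 1, 9 in ICH 2 and 19 in sham 1, and 0 elsewhere. Gabrr3 had 7 counts in ICH+P7C3-A20 1, 16 in ICH 1, 5 in ICH 3 and 0 in the sham libraries. Gabrp had 4 counts in sham 3 and 0 elsewhere. At these counts no difference between groups was detectable.

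Of the GABA-B receptor pair, Gabbr1 fell in ICH against sham and Gabbr2 was not called. Gabbr1, which binds GABA, had 76.8, 83.8 and 76.5 FPKM in ICH+P7C3-A20 brains, 70.8, 68.9 and 66.2 FPKM in ICH brains and 92.7, 92.3 and 100.1 FPKM in sham brains. The ranges of the 3 groups were apart, with a log2 change of -0.52 ± 0.12 (edgeR adjusted p = 0.00797) in ICH against sham and no call in ICH+P7C3-A20 against ICH (0.26 ± 0.12, edgeR adjusted p = 0.201). Gabbr2, which couples to G proteins and brings Gabbr1 to the surface, averaged 22.6 ± 5.29 FPKM in ICH+P7C3-A20, 14.0 ± 2.60 FPKM in ICH and 19.99 ± 4.12 FPKM in sham brains (SD, n = 3 each). Its log2 change in ICH against sham was -0.56 ± 0.27 (edgeR adjusted p = 0.153), and in ICH+P7C3-A20 against ICH it was 0.75 ± 0.27 (edgeR adjusted p = 0.111).

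**Figure D3:**
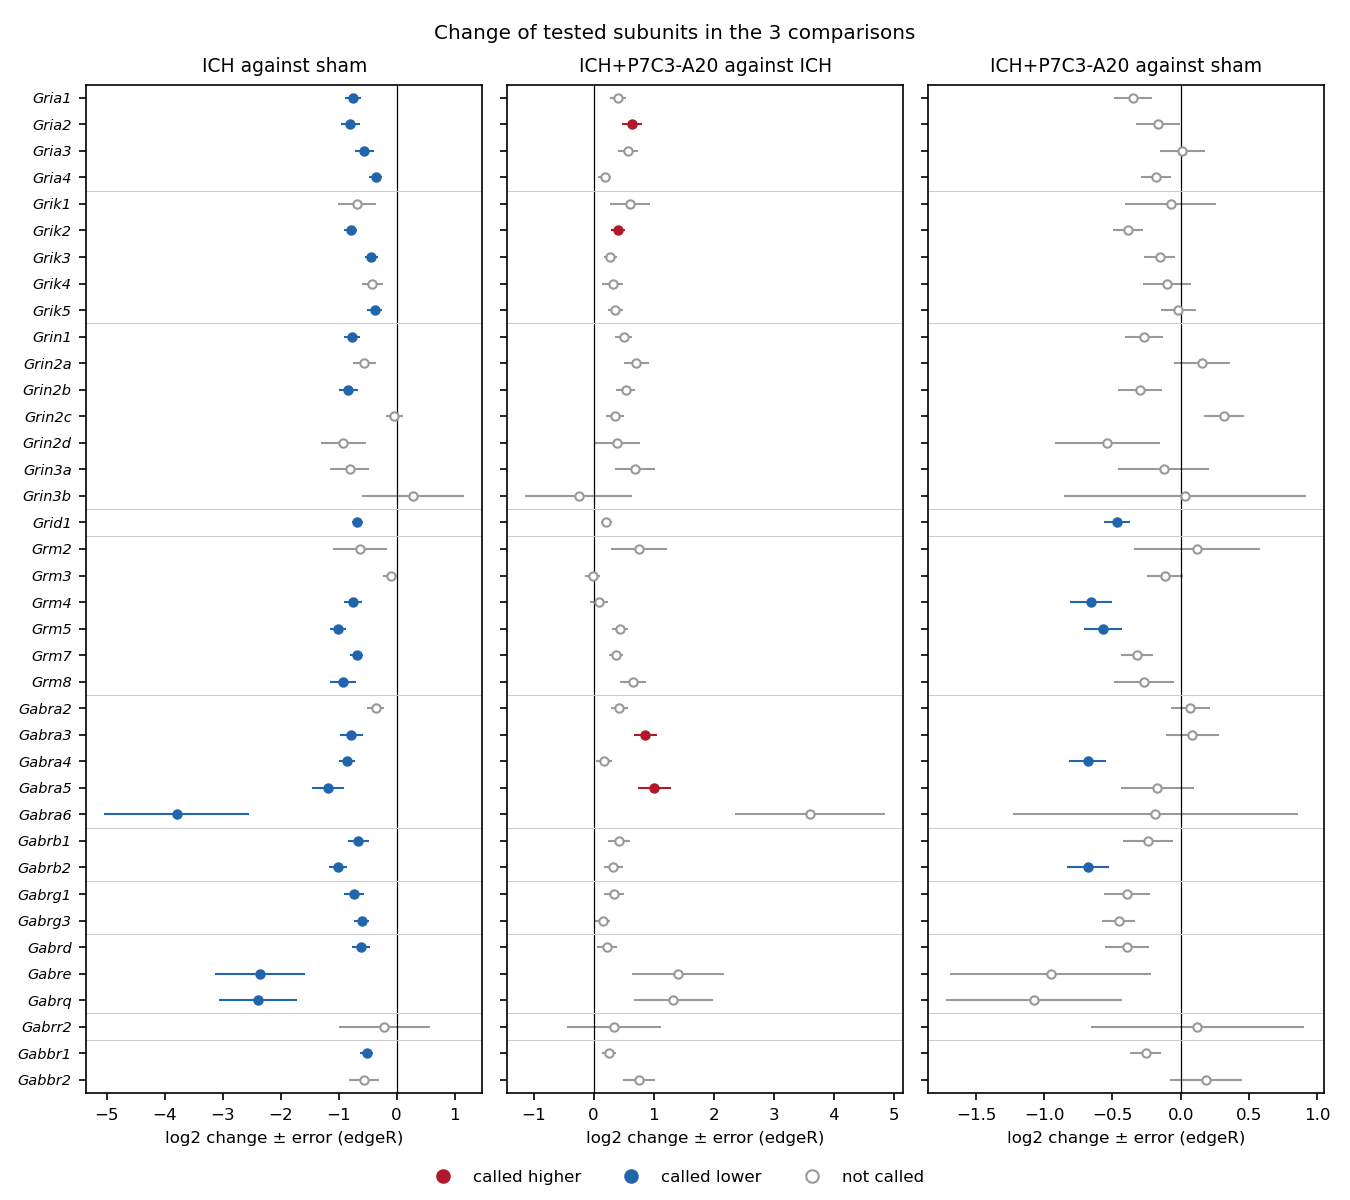
Log2 change of 38 of the 43 tested subunits with its error in the 3 comparisons (panels, each with its own axis range), where filled points are genes called by edgeR at an adjusted p under 0.05. In ICH against sham 37 of 38 points are below 0 and 26 are filled, and in ICH+P7C3-A20 against ICH 36 of 38 are above 0 and 4 are filled.

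The rise of receptor subunits in ICH+P7C3-A20 against ICH was mostly below the threshold of the test. The log2 change was positive for 41 of 43 tested members, and 24 had an unadjusted p under 0.05. Among all 21900 tested genes, 10799 were positive and 5316 had such a p in either direction. In 25 members all ICH+P7C3-A20 brains were above all ICH brains, where 10.7% of all tested genes did this, and in 0 were all below, against 16.4% of tested genes (27.1% in all). The 5 called members were from 4 classes and rose by 0.41 to 1.01 on the log2 scale. Set against sham, Gria2, Grik2, Gabra3 and Gabra5 had log2 changes of -0.16 ± 0.16, -0.39 ± 0.11, 0.08 ± 0.19 and -0.17 ± 0.27 in that order, none of them called. The number that rose was 0 without ICH 2, 1 without ICH 3 or ICH+P7C3-A20 1, 2 without sham 1, ICH 1 or ICH+P7C3-A20 3, 10 without sham 3 and 11 without ICH+P7C3-A20 2. DESeq2 called 19 higher, while limma on log2(FPKM + 0.1) called 0, with 24 of the 43 at an unadjusted edgeR p under 0.05. How many of all tested genes each of these settings called is not given here, so these counts do not set members against other genes. The rise of Gabra3 ended without ICH 1, ICH 2, ICH 3 or ICH+P7C3-A20 1 (0.65 to 0.98, edgeR adjusted p up to 0.0996). Gria2 (0.53 to 0.69, up to 0.128) and Grik2 (0.34 to 0.49, up to 0.175) lost theirs without sham 1, any ICH library, ICH+P7C3-A20 1 or ICH+P7C3-A20 3, and Gabra5 (0.79 to 1.35, up to 0.180) without sham 1, sham 2, ICH 2, ICH 3, ICH+P7C3-A20 1 or ICH+P7C3-A20 3. Cortical neuron markers moved in the same direction in this comparison: 2 of 10, Rasgrf2 and Lamp5, rose (median 1.11 over the 10). In ICH against sham 2 of the 10 fell and 0 rose, at a median of -0.19 (subunits -0.74). In ICH+P7C3-A20 against sham 0 were called and 10 of 10 were positive, at a median of 0.74 (subunits -0.27). Summed FPKM of these markers were 354 to 391 in ICH+P7C3-A20 libraries, 229 to 258 in ICH libraries and 219.7 to 565 in sham libraries. Their part in the rise of the subunits was not tested.

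The 6 subunits that fell in ICH+P7C3-A20 against sham included metabotropic (Grm4 and Grm5), delta (Grid1), and GABA-A (Gabra4 and Gabrb2) genes. Their log2 changes in ICH+P7C3-A20 against ICH were 0.09 to 0.44 and none was called. Over all members, 34 of 43 changes against sham were negative and 15 had an unadjusted p under 0.05. Among all 21900 tested genes, 10237 were negative and 3981 had such a p in either direction. In 11 members all ICH+P7C3-A20 brains were below all sham brains, where 5.39% of all tested genes did this, and in 0 were all above, against 10.7% (16.1% in all). The number that fell was 1 without ICH+P7C3-A20 3, 2 without sham 1 or ICH+P7C3-A20 2, 3 without ICH 1 and 4 to 6 without each of the other libraries. Striatal projection neuron markers were low in both haemorrhage groups: 10 of 10 fell in ICH against sham (median -0.82), 0 were called in ICH+P7C3-A20 against ICH (median 0.07) and 3 of 10 fell in ICH+P7C3-A20 against sham (median -0.72). Their summed FPKM were 578 to 904 in ICH+P7C3-A20 libraries, 647 to 827 in ICH libraries and 982 to 1743 in sham libraries. Drd1 had log2 changes of -0.90 ± 0.19 in ICH+P7C3-A20 against sham and -0.96 ± 0.19 in ICH against sham, and Tac1 -0.68 ± 0.16 and -1.13 ± 0.16. The part of striatal neurons in the 6 subunits was not tested.

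Markers of glial and other cells were read in the same comparisons, with no test of one list against another. Microglia and macrophage markers rose in ICH against sham in 10 of 10 cases (median 2.77), fell in 8 of 10 in ICH+P7C3-A20 against ICH (median -1.20) and rose in 10 of 10 in ICH+P7C3-A20 against sham (median 1.57). Of 9 homeostatic astrocyte markers, 4 rose in ICH against sham, 1 rose and 2 fell in ICH+P7C3-A20 against ICH, and 2 rose in ICH+P7C3-A20 against sham. Oligodendrocyte markers had 1 of 8 higher in ICH against sham and 1 lower in ICH+P7C3-A20 against ICH (Cldn11 in both), and oligodendrocyte precursor markers 4 of 6 higher and 1 lower. Of the 9 cerebellar neuron markers, 1 rose and 2 fell in ICH against sham (median -0.87), 0 were called in ICH+P7C3-A20 against ICH (median 0.35), and 1 fell in ICH+P7C3-A20 against sham (median -0.51). These medians had the same signs as those of the subunits. So did the medians of the pan-neuronal, striatal projection neuron, and thalamic and hypothalamic markers. None of 8 choroid plexus markers was called in any comparison, and their summed FPKM varied within groups, 77.8 to 1737 in ICH+P7C3-A20 libraries, 51.6 to 2614 in ICH libraries and 45.1 to 463 in sham libraries. The part of these cells in the receptor results was not tested.

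**Figure D4:**
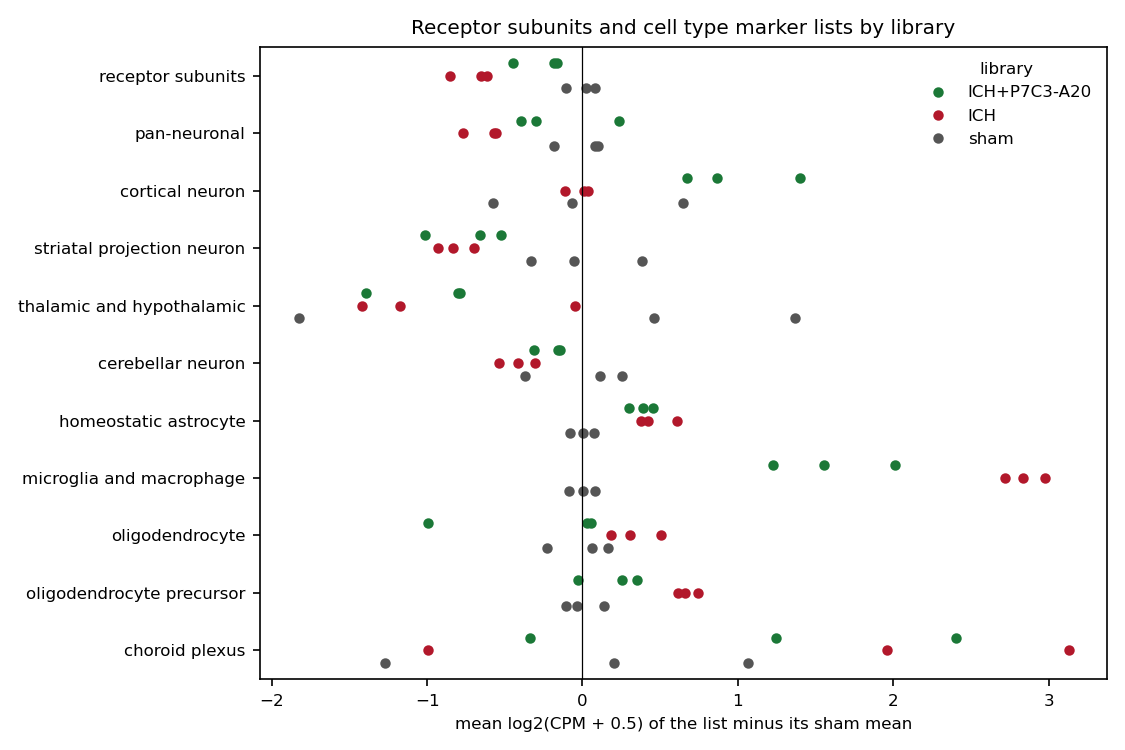
Mean log2(CPM + 0.5) of the receptor subunits and of each marker list in every library, minus the list's sham mean (rows are lists, points are libraries coloured by group). Receptor subunits lie at -0.45 to -0.16 in ICH+P7C3-A20, -0.85 to -0.61 in ICH and -0.10 to 0.08 in sham libraries, pan-neuronal markers have 1 ICH+P7C3-A20 library at 0.24, and choroid plexus markers range from -1.27 to 3.13.

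Genes that work with the receptors were read from 4 lists. Of 24 auxiliary subunits and scaffolds of glutamate receptors, 16 fell and 1 rose in ICH against sham (median -0.57), 6 rose and 1 fell in ICH+P7C3-A20 against ICH (median 0.47), and 0 were called in ICH+P7C3-A20 against sham (median -0.11). Cacng2, the AMPA receptor partner stargazin, fell by 0.60 ± 0.11 on the log2 scale in ICH against sham (edgeR adjusted p = 0.00247), and Neto1, a kainate receptor partner, fell by 0.79 ± 0.14 (edgeR adjusted p = 0.00192). Cbln2, a cerebellin, rose by 1.67 ± 0.25 in ICH+P7C3-A20 against ICH (edgeR adjusted p = 0.00684), as did the scaffolds Dlg2 (0.56 ± 0.13) and Dlg3 (0.56 ± 0.14). Of 11 GABA receptor partners and chloride transporters, 6 fell and 2 rose in ICH against sham, 2 rose and 0 fell in ICH+P7C3-A20 against ICH, and 0 were called in ICH+P7C3-A20 against sham. Slc12a5, the transporter that keeps neuronal chloride low, had a log2 change of 0.50 ± 0.12 in ICH+P7C3-A20 against ICH (edgeR adjusted p = 0.0348) and -0.81 ± 0.12 in ICH against sham (edgeR adjusted p = 0.000907). Gphn, the gephyrin scaffold, fell by 0.52 ± 0.09 in ICH against sham, and Kctd12, a GABA-B partner, rose by 0.66 ± 0.12.

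Genes that make and clear the transmitters also changed. Of 9 genes for GABA synthesis, transport and breakdown, 5 fell in ICH against sham (median -0.80), 0 were called in ICH+P7C3-A20 against ICH (median 0.21) and 2 fell in ICH+P7C3-A20 against sham (median -0.34). Slc32a1, the vesicular GABA transporter, fell by 0.81 ± 0.11 in ICH+P7C3-A20 against sham and by 0.92 ± 0.11 in ICH against sham (edgeR adjusted p = 0.00255 and 0.000202). Gad1, a GABA-making enzyme, fell by 0.60 ± 0.13 and by 0.81 ± 0.13 in the same comparisons. Of 14 genes for glutamate transport and metabolism, 2 rose and 4 fell in ICH against sham, 3 rose and 1 fell in ICH+P7C3-A20 against ICH, and 1 rose in ICH+P7C3-A20 against sham. Slc38a3, a glutamine transporter, rose by 0.83 ± 0.11 in ICH+P7C3-A20 against sham and by 1.35 ± 0.11 in ICH against sham. The vesicular transporter Slc17a8 rose by 0.84 ± 0.18 in ICH+P7C3-A20 against ICH and fell by 1.33 ± 0.18 in ICH against sham.

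Subunit ratios within a library remove what all members share. For 7 ratios of FPKM, of which 5 are described, group means on the log2 scale were compared by a two-sided exact permutation test, whose smallest possible p with 3 brains against 3 is 0.1, so that no ratio could pass. Grin2a over Grin2b was -0.84, -0.77 and -0.86 in ICH+P7C3-A20 brains, -1.03, -1.01 and -0.99 in ICH brains and -1.35, -1.51 and -1.08 in sham brains. The 3 groups did not overlap, with ICH+P7C3-A20 highest and sham lowest (exact p = 0.1 in each comparison, 0.263 adjusted over 21 tests). Grm5 over Grm3 was 0.41, 0.34 and -0.01 in ICH+P7C3-A20 brains, -0.27, -0.27 and -0.11 in ICH brains and 0.74, 0.58 and 0.73 in sham brains. Here ICH was lowest and sham highest without overlap (exact p = 0.1 in each comparison). The ratios of Gria2 over the other AMPA subunits, of summed Gria over summed Gabra and of Grin1 over summed Gria overlapped between groups in all comparisons (exact p = 0.2 to 0.8). Summed Gria over summed Gabra differed by -0.16 in ICH+P7C3-A20 against ICH and by 0.20 in ICH against sham on the log2 scale.

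**Figure D5:**
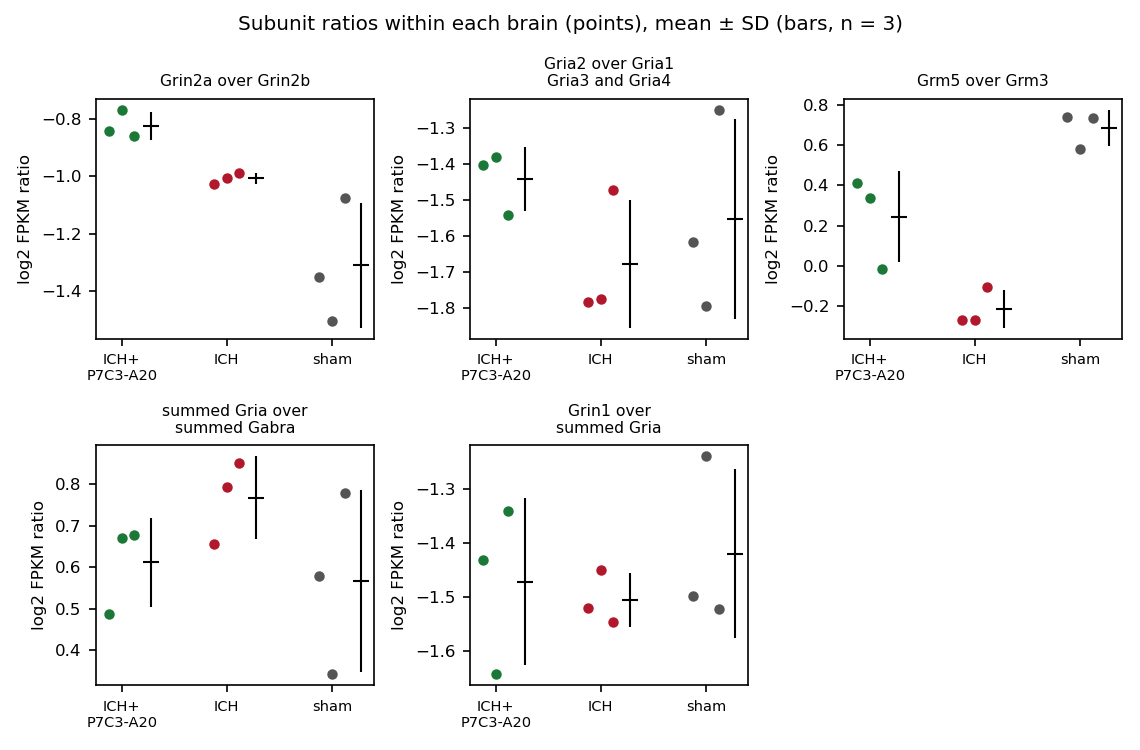
Log2 ratio of FPKM for 5 pairs of subunits or subunit sums in each brain (points), with the group mean and SD (bars, n = 3). The 3 groups are apart for Grin2a over Grin2b (means -0.82, -1.01 and -1.31 in ICH+P7C3-A20, ICH and sham) and for Grm5 over Grm3 (0.24, -0.21 and 0.68).

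GABA-A subunit genes lie in clusters in the genome, and neighbours were compared for their changes. Positions are those of the deposited table, and 35 of the 47 members have the identical position and strand in GENCODE M21 (GRCm38). On chromosome 5 (chr5:70751047-72149037) Gabrg1, Gabra4 and Gabrb1 fell in ICH against sham while Gabra2 between them was not called. On chromosome 7, Gabrg3 and Gabra5 both fell in ICH against sham, with log2 changes in ICH+P7C3-A20 against ICH of 0.15 ± 0.12 and 1.01 ± 0.27. On the X chromosome, Gabre, Gabra3 and Gabrq fell in ICH against sham by 2.36, 0.78 and 2.40 on the log2 scale, at mean levels of 0.604, 13.3 and 1.498 FPKM. Gabra4 and Gabrb1 lie on opposite strands and share 196 bases of exon. In all, exons of 14 members, among them Gabra5, overlap a gene on the opposite strand, and those of 6, among them Gria2, a gene on the same strand. Reads of such stretches may be counted for either gene.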

How the data were processed

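Polyadenylated RNA from 9 mouse brains was made into libraries whose second strand was marked with dUTP, per the labels' protocols. The submitters' processing notes name cutadapt 1.9, HISAT2 2.0.4 and StringTie 1.3.4d. FPKM and whole-number estimated counts for 35112 genes were deposited by the authors, per the file headers. The estimated counts were used whole, and rounding changed none. Genome build, strand setting and counting step were not given in the sources used here.

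Counts were fitted with edgeR 4.0.16 in R 4.3.3, with filterByExpr (minimum count 10 and minimum total 15), TMM scaling and a robust quasi-likelihood model of the 3 group means that used all 9 libraries (residual degrees of freedom 6). Tests were two-sided, with Benjamini-Hochberg adjustment over 21900 genes. The error beside a log2 change is that change over the root of edgeR's F. Because the table held counts, edgeR took the place of a test on log2(FPKM + 1). Ratios of FPKM were compared by exact permutation tests. The fit was tested on simulated counts. Libraries held 51537047 to 63324728 estimated counts.

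Alternatives were no filter, other scalings, DESeq2 1.42.0, limma 3.58.1 on log2(FPKM + 1) or log2(FPKM + 0.1) for genes of mean FPKM 0.1 or more, quantile scaling, only the groups compared, replicate number as a block, and leaving out each library in turn. Leaving out sham 3 and ICH+P7C3-A20 1 together was chosen after seeing the data. The members, gene lists and tests were chosen with earlier results of these data known. Values in every library are given for members called in any comparison and for the highest of each class, and up to 3 genes of each list (those with the smallest p in a comparison) are named. Some members and list genes, and ratios that need them, count in the totals but are not reported here. The 10 genes of the plot of levels were chosen after their values were seen.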

Additional observations from a re-analysis of the deposited data

How the results depend on the processing

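In ICH against sham, the number of members that fell stayed within 1.5 times 31 in every alternative that kept all 9 libraries, and was 21 to 32 with each library left out in turn. Single calls were less stable than that bound shows. Limma on log2(FPKM + 0.1) ended those of Gria2, Gria3, Gria4, Grik3, Grik5, Gabra6, Gabrb1, Gabrg3, Gabrd and Gabre. Limma on log2(FPKM + 1) ended those of Gria3, Gria4, Grik3, Grik5, Grm8, Gabra6, Gabrd and Gabre. With sham 3 and ICH+P7C3-A20 1 both left out, 1 member rose in that comparison. In ICH+P7C3-A20 against ICH, 5 members rose, against 3 with no filter, 9 with upper quartile scaling, 19 with DESeq2, 0 with limma on log2(FPKM + 0.1) and 0 to 11 with each library left out. In ICH+P7C3-A20 against sham, 6 fell, against 3 with scaling by library totals, 1 with limma on log2(FPKM + 1), 1 on log2(FPKM + 0.1), 3 with quantile scaling, 2 with the compared groups alone, 10 with sham 3 and ICH+P7C3-A20 1 both left out and 1 to 6 with each library left out. Shares of all tested genes called in these alternatives are not given here, so the counts describe the members only. The cause was not tested.

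Signs turned for members that were not called. In ICH against sham, log2 changes with each library left out in turn were -0.21 to 0.049 for Grin2c (0.018 with library totals, 0.049 with sham 3 and ICH+P7C3-A20 1 both left out), -0.16 to 1.79 for Grin3b (-0.0030 with quantile scaling), -0.20 to 0.0100 for Grm3 (0.010 with both left out) and -0.65 to 0.26 for Gabrr2. For ICH+P7C3-A20 against ICH they were -0.10 to 0.073 for Grm3 (0.021 with upper quartile scaling, 0.073 with both left out), -0.61 to 0.79 for Gabrr2, -0.051 to 0.26 for Grm4, -0.996 to 0.26 for Grin3b (0.26 with both left out) and -0.12 to 1.83 for Gabre. For ICH+P7C3-A20 against sham they were -0.13 to 0.18 for Gabra3 (-0.30 with both left out) and -0.39 to 0.024 for Gabra5. No ratio of subunits that is reported passed in any alternative run, and with 3 or fewer brains per group none could. With single libraries left out in turn, signs turned for the ratio of Gria2 over the other AMPA subunits in ICH against sham (-0.24 to 0.028) and in ICH+P7C3-A20 against sham (-0.0093 to 0.26), for summed Gria over summed Gabra in ICH+P7C3-A20 against sham (-0.068 to 0.15), and for Grin1 over summed Gria in ICH against sham (-0.14 to 0.0041), in ICH+P7C3-A20 against ICH (-0.031 to 0.12; -0.017 from counts) and in ICH+P7C3-A20 against sham (-0.12 to 0.038).

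The labels do not say that replicate numbers pair the samples, and the data gave no clear sign of it. Deviations of same-numbered libraries correlated at -0.13 to 0.09, and not every library correlated best with its own number. With 3 libraries per group this check cannot exclude a pairing. With the number as a replicate block, 29 members fell in ICH against sham, 6 rose in ICH+P7C3-A20 against ICH and 5 fell in ICH+P7C3-A20 against sham. Depth limits what can be said of Grm6, Gabrp and the Gabrr genes, and 3 brains per group limit the rest.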
